A study of Mus musculus with 6 samples.

Results

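Collagens are assembled from alpha chains, each encoded by its own gene, and the messenger RNA of these chains was compared between the skin of wild-type and knock-in mice. A gene was included where a probe set of the array had as its only annotated symbol one of the form Col, number, a, number, leaving out Col7a1 and Col17a1, which belong to the epidermal junction. This gave 40 genes, read by 80 probe sets, of 18193 genes with a probe set of their own, and each gene was represented by its probe set of highest average signal over the 6 arrays. The chains were grouped as fibrillar (11 genes), network-forming (9), FACIT, the collagens that sit on the surface of fibrils (9), and other (11). Of the chains on this grouping, Col21a1, Col6a6 and Col28a1 were not analysed here.

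There were 3 wild-type arrays and 3 knock-in arrays, each from 1 skin sample on a C57BL/6 background. The genotype label of the knock-in is KA and its source is given as KAB6, without the name of the altered gene, and no treatment, age, sex or body site was given. Nothing in the labels says that the samples of a group came from separate animals, so the p-values measure only the spread between these samples. Xist, the RNA of the inactive X chromosome, had signals of 29.7 ± 2.44 on wild-type and 3729.7 ± 282 on knock-in arrays (SD, n = 3 per group, as for all such errors), and the Y-linked gene Eif2s3y had 687 ± 42.6 on wild-type and 5.04 ± 0.544 on knock-in arrays. By these genes the arrays differ in sex as they do in genotype, and the 2 cannot be told apart in any value below. Keratinocyte markers were bright on every array, with a summed signal of 6 genes from 30689.8 to 34951 in wild-type and from 32840.4 to 40901 in knock-in. Skeletal muscle markers were bright too, with a summed signal of 8 genes from 35446 to 56069.6 in wild-type and from 19124 to 31712 in knock-in, and of these 0 rose, 6 fell and 2 did not pass. Across all genes tested, 14.8% rose and 16.3% fell. In a whole-tissue sample, fewer cells of a type and less RNA per cell cannot be told apart. Replicates correlated with Pearson's r between 0.975 and 0.985 within a group and between 0.880 and 0.917 across groups, over the genes tested.

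Each chain carries a long run of repeats with regularly spaced glycine, and the chains wind around each other into a stiff rod. Types I, III and V build the fibrils of the dermis, with type V regulating how fibrils start and how thick they grow. Type IV forms the sheet of basement membranes under epithelia and around vessels, nerve and muscle. FACIT collagens such as type XII coat fibrils, and type VI forms beaded filaments around cells. Collagens of the fibrillar kind pass through hydroxylation, propeptide removal and cross-linking before the fibril is complete.

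Expression was lower for the main type I chain and for part of the type IV chains, and higher for the chains of types V, VI and XII and for the most widely used type IV pair. Of the 40 genes, 24 passed a filter on dim signals (above the array's own median signal on at least 3 arrays), and 22 of these exceeded it on all 6 arrays. In a limma fit over all 11670 genes that passed the filter, 17 of the 24 collagen genes had a Benjamini-Hochberg adjusted p under 0.05, with 12 higher and 5 lower in knock-in. Across all genes tested, 31.2% passed, 14.8% higher and 16.3% lower. The collagen share was 70.8%, with 12 of 24 higher and 20.8% lower, so the share of lower genes lay near the background. The median log2 difference of the 24 was 0.40, against -0.022 over all genes tested. In 17 of the 24 (70.8%) the 3 arrays of each group did not overlap, as in 47.1% of all genes tested. Centring arrays on their medians moved the share of higher genes among all calls from 47.6% to 68.1%, and left 12 higher and 4 lower collagen genes. Each difference is given as knock-in minus wild-type of log2(signal + 16), which understates the change of dim genes, with its standard error. Without wild-type replicate 3 the number of all genes called fell from 3636 to 2394, and the lower collagen genes numbered 3 without that array or without knock-in replicate 2.

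**Figure D1:**
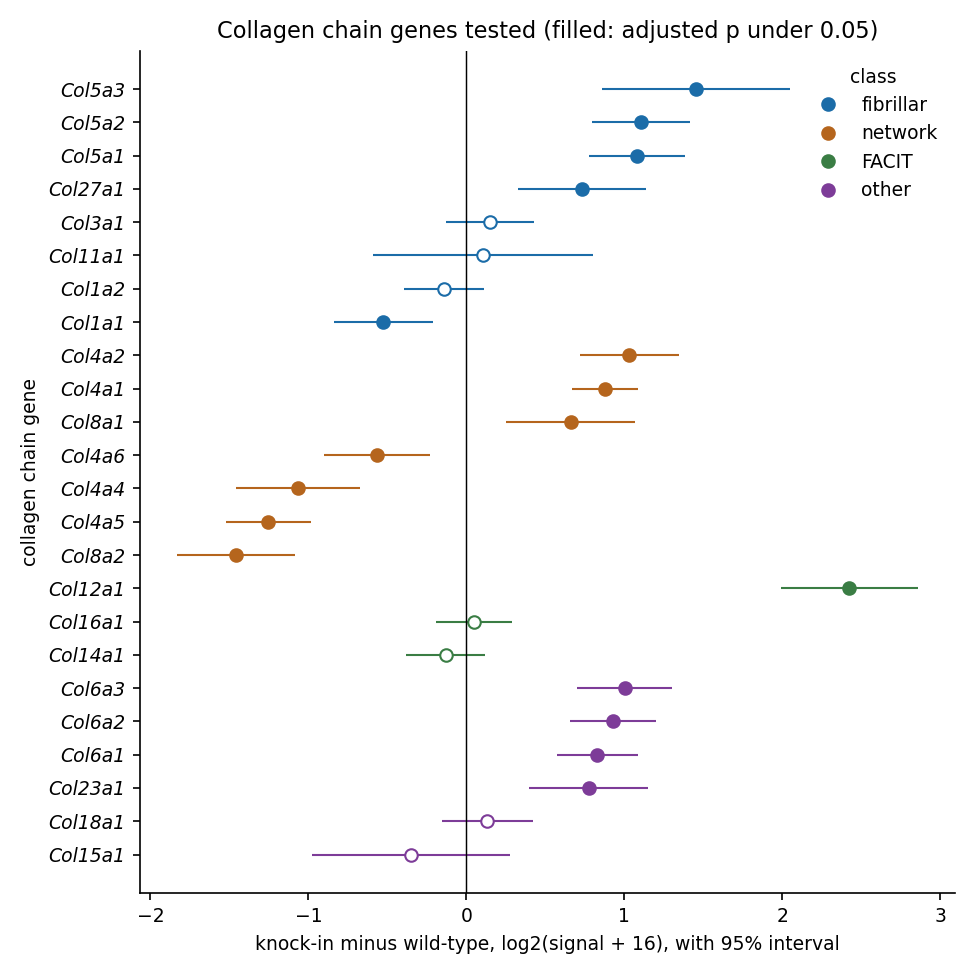
Log2 difference (knock-in minus wild-type, log2(signal + 16)) of the 24 collagen chain genes tested, with 95% intervals from limma, coloured by class. Filled points passed an adjusted p of 0.05, and network chains lie on both sides of 0.

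Among the fibrillar chains 8 were tested, of which 4 rose, 1 fell and 3 did not pass, where 14.8% of all genes tested rose and 16.3% fell. The type I chains make the bulk of dermal fibrils. For Col1a1 (probe set 1455494_at) the wild-type signals were 3650.4, 5063 and 4803 and the knock-in signals 3406, 2831 and 3077. All 3 knock-in arrays lay below the lowest wild-type array, by a narrow margin. The log2 difference was -0.52 ± 0.14 (adjusted p = 0.0197). This call was lost when any 1 of wild-type replicates 2 and 3 and knock-in replicates 2 and 3 was left out (adjusted p = 0.0576, 0.0793, 0.06 and 0.0634), in a range from 0.00506 to 0.0793 over 15 alternatives. The second Col1a1 probe set gave -0.44, with groups that overlapped (from 2453 to 4038 in wild-type and from 2047 to 2506 in knock-in).

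Its partner Col1a2 (1450857_a_at) gave 10228, 11929 and 10854 in wild-type and 11287, 9452 and 9265 in knock-in, and the groups overlapped. The log2 difference was -0.14 ± 0.11 (95% interval from -0.40 to 0.11, adjusted p = 0.374), while quantile normalization brought it past the threshold (-0.26, adjusted p = 0.0254). Its other probe sets had differences of -0.42 and -0.71, each without overlap of the groups, and the mean over its probe sets -0.42 (adjusted p = 0.0633). Whether the groups overlapped thus depended on the probe set for both type I chains. Col3a1 (1427883_a_at), the sole chain of type III collagen, which shares fibrils with type I, gave 9309.6, 12160.5 and 10292 in wild-type and 12864, 11370.1 and 10881 in knock-in. These groups overlapped too, with a difference of 0.15 ± 0.12 (95% interval from -0.13 to 0.43, adjusted p = 0.389). The Col3a1 value was 0.024 with quantile normalization and 0.28 with median centring, and ran from 0.062 to 0.25 with 1 array left out, without passing. By mean signal the Col3a1 and Col1a2 probe sets ranked 9 and 19 among all 45101, near the top of the array's range, and whether their signal was compressed there was not tested.

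The type V chains all rose. Col5a1 (1416740_at) went from 639, 780.2 and 553 in wild-type to 1546, 1274 and 1373 in knock-in, and Col5a2 (1422437_at) from 2111, 2792 and 1924 to 5125, 4778 and 4676. Each knock-in array exceeded every wild-type array for both chains, which form the common type V molecule. Mean signals were 2.13-fold and 2.14-fold those of wild-type, with log2 differences of 1.08 ± 0.13 and 1.11 ± 0.14 (adjusted p = 7.10e-04 and 6.79e-04). Col5a3 (1419703_at), the chain of a rarer form, had wild-type signals of 185, 170.2 and 198 and knock-in signals of 819.5, 338 and 541. Knock-in replicate 1 was the highest and replicate 2 the lowest of its group, and both exceeded all wild-type arrays. The Col5a3 difference was 1.45 ± 0.26 (adjusted p = 0.00397), or 0.57 (adjusted p = 0.041) as the mean with its second probe set, whose signals ranged from 0.611 to 10.6.

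Fibroblasts make most fibrillar collagen. Of 10 dermal fibroblast markers, 6 rose, 1 fell and 3 did not pass, with Pdgfra at 1.44 ± 0.11, Pi16 at 1.73 ± 0.20, Twist2 at 0.89 ± 0.12 and Fbln1 at 0.69 ± 0.11 (0.39 averaged over its probe sets), while the list's summed signal overlapped, from 16709 to 21978 in wild-type and from 20269.7 to 21861 in knock-in. Wound fibroblast and myofibroblast markers, of which 4 rose, 1 fell and 3 did not pass among 8 genes, had summed signals from 8176 to 10589 in wild-type and from 12559 to 14234 in knock-in, with Adam12 at 1.78 ± 0.19, Cthrc1 at 1.38 ± 0.23, Postn at 1.00 ± 0.19 and Lrrc17 at 0.82 ± 0.16 (0.49 averaged over its probe sets). Of the dermal list, Dpp4 fell (-0.52 ± 0.12), and Dpt (-0.082 ± 0.11), Lum (-0.040 ± 0.16) and Dcn (-0.026 ± 0.13) did not pass. Of the wound list, Lrrc15 fell (-1.05 ± 0.23), and Acta2 (-0.18 ± 0.11), Tagln (-0.20 ± 0.16) and Fap (-0.20 ± 0.15) did not pass. Postn was the brightest gene of the wound list, with means of 4369 on wild-type and 8622 on knock-in arrays. Across all genes tested, 14.8% rose and 16.3% fell. The sums of the wound list did not overlap, and the part of these cells in the fibrillar differences was not tested.

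Col27a1 (1453191_at), a fibrillar chain known from cartilage, gave 71, 64.6 and 88.4 in wild-type and 102, 147 and 158 in knock-in. The groups did not overlap, and the difference was 0.73 ± 0.18 (adjusted p = 0.0149). It was 0.46 as the mean over its probe sets, and its adjusted p rose to 0.0621 when knock-in replicate 3 was left out (range over the alternatives 0.00613 to 0.0621). Col11a1, a partner of cartilage fibrils, did not pass (signals of 131 ± 49.5 on wild-type and 144 ± 64.9 on knock-in arrays, difference 0.10 ± 0.31), and its sign turned with the mean over its probe sets (-0.15) and when wild-type replicate 3 (-0.13) or knock-in replicate 2 (-0.21) was left out. Col2a1, the main cartilage collagen, Col11a2 and Col24a1 were dim, with signals between 1.43 and 30.5 on all arrays. Of all 16 dim collagen genes, Col24a1 alone passed when the filter was left off (signals of 11.1 ± 2.69 on wild-type and 28 ± 2.94 on knock-in arrays, log2 difference 0.70, adjusted p = 0.0151).

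**Figure D2:**
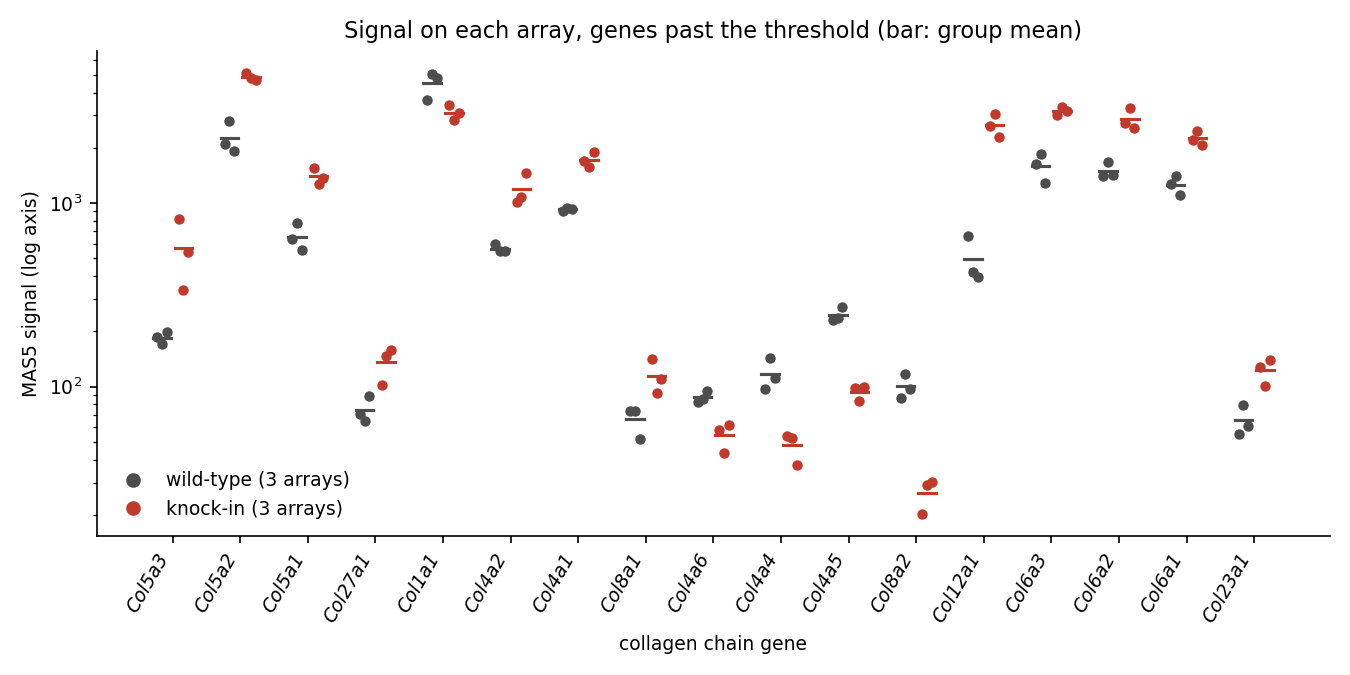
MAS5 signal on each array (log axis) of the 17 collagen chain genes past the threshold, with bars at the group means (n = 3 per group). In each gene the 3 wild-type and 3 knock-in arrays do not overlap.

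The network-forming chains split. Of 7 tested, 3 rose and 4 fell, where 14.8% of all genes tested rose and 16.3% fell. Among the 7, Col8a2 passed the filter through the wild-type arrays alone. The calls of Col4a6 and Col8a1 did not hold under every alternative, as given below. Col4a1 (1452035_at) and Col4a2 (1424051_at) make the type IV molecule found in nearly all basement membranes. Col4a1 had signals of 907, 935 and 932 in wild-type and 1689, 1571 and 1889 in knock-in. Col4a2 rose from 598, 547 and 550.4 to 1018, 1074 and 1466. The wild-type arrays lay close together and every knock-in array was above them, with differences of 0.88 ± 0.092 and 1.03 ± 0.14 (adjusted p = 3.15e-04 and 9.87e-04). A second Col4a1 probe set gave 0.95. Endothelial cells rest on this form of type IV collagen, and of 8 endothelial markers, 7 rose, 0 fell and 1 did not pass, with Emcn at 1.92 ± 0.12, Egfl7 at 1.30 ± 0.10 (0.62 without shared probe sets), Esam at 1.20 ± 0.10 and Pecam1 at 1.47 ± 0.13. Over all genes tested, 14.8% rose and 16.3% fell. Of the 7 markers that rose, Tie1 passed the filter through the knock-in arrays alone, so it had to differ to be tested as it was. The summed signal of the 8 markers ran from 762 to 938 in wild-type and from 2052 to 2266 in knock-in, without overlap. The part of endothelial cells in the type IV difference was not tested.

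Of the less common type IV chains Col4a4, Col4a5 and Col4a6 fell, and Col4a3 was too dim to be tested. Col4a5 and Col4a6, which together form the other type IV molecule of skin basement membrane, lie on the X chromosome. Col4a5 (1425476_at) gave 229.8, 235 and 273 in wild-type and 98.6, 83.4 and 99.5 in knock-in. Knock-in arrays were thus all below wild-type, at a mean 2.62-fold lower and a log2 difference of -1.25 ± 0.12 (adjusted p = 1.90e-04). Col4a6 (1421006_at) gave 82.3, 86.1 and 94.5 and 58.1, 43.3 and 61.9, again without overlap, and a difference of -0.57 ± 0.15 (adjusted p = 0.02). That call was lost without wild-type replicate 3 (adjusted p = 0.0782), without knock-in replicate 2 (0.057) and with median centring (0.0518), in a range from 0.0084 to 0.0782.

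Col4a4 (1445328_at), a chain best known from the kidney filter and carried on chromosome 1, gave 97.6, 144 and 112 in wild-type and 53.5, 52.3 and 37.6 in knock-in. Knock-in replicates 1 and 2 lay above their array's median signal and replicate 3 below it, and all 3 lay below every wild-type array. Its difference was -1.06 ± 0.17 (adjusted p = 0.00244), or -0.70 with an offset of 64, and a second probe set gave -1.16. Col4a3, its partner, was dim, with 33.9 ± 7.52 on wild-type and 25.9 ± 10.3 on knock-in arrays. A second Col4a3 probe set, dimmer still, gave -0.68 without overlap, with signals from 17.8 to 32.2 in wild-type and from 7.84 to 13 in knock-in.

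Type VIII collagen, a short-chain network former of vessel walls and the cornea, has a pair of chains that moved in opposite directions. Col8a1 (1455627_at) gave 73.5, 73.9 and 51.7 in wild-type and 141, 92.3 and 110.2 in knock-in, a difference of 0.66 ± 0.18 (adjusted p = 0.0236). The groups did not overlap, but the call was lost on leaving out wild-type replicate 3 (adjusted p = 0.085), knock-in replicate 1 (0.0787) or knock-in replicate 3 (0.0652) and with the mean over its probe sets (0.0768), in a range from 0.00897 to 0.085. Col8a2 (1434667_at) gave 87.2, 117 and 97.4 in wild-type and 20.3, 29 and 30.1 in knock-in. Its mean was 3.81-fold lower in knock-in, with a difference of -1.46 ± 0.16 (adjusted p = 4.35e-04), or -0.86 with an offset of 64. Col8a2 passed the filter through the wild-type arrays alone, so it had to differ to be tested as it was. Col10a1, of growth cartilage, was dim, with no signal above 2.28.

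Promoter sequences of these pairs, from RefSeq on GRCm38.p6, show how the genes are arranged. Col4a1 and Col4a2 lie head to head with annotated starts 21 bases apart, so that their windows of 250 bases before to 50 after the start share 78 bases. Col4a5 and Col4a6 also lie head to head, but their transcripts run apart without overlap, with starts 1343 bases apart and no shared bases. The first lines give 30 bases around the only CCAAT match, on either strand, within 250 bases before the Col4a1 and Col4a2 starts, with the match in capitals, 145 and 32 bases before the start (chr8:11312955-11312984, minus strand, and chr8:11312760-11312789, plus strand). The next lines give the 250 bases before the start of Col4a5 (chrX:141475169-141475418, plus strand), Col4a6 (chrX:141474077-141474326, minus strand), Col8a1 (chr16:57754738-57754987, minus strand) and Col8a2 (chr4:126286544-126286793, plus strand), 5′ to 3′. In these, capitals mark every match, on either strand, to the boxes CCAAT and TATAAA, to the GC box GGGCGG or to the AP-1 motif TGANTCA.
Col4a1: gtgcttgcccgggATTGGcgagccaagggg
Col4a2: cccgaggagctccCCAATttgttggcgctg
Col4a5: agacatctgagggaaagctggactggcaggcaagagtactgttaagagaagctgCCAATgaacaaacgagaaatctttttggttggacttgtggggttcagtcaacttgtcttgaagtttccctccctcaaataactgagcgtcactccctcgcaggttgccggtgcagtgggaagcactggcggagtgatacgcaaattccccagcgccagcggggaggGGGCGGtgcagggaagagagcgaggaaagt
Col4a6: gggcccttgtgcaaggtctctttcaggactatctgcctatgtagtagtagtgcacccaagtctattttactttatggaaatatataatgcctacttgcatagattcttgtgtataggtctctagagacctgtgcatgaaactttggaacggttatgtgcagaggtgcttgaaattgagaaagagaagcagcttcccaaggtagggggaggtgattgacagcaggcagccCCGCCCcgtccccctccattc
Col8a1: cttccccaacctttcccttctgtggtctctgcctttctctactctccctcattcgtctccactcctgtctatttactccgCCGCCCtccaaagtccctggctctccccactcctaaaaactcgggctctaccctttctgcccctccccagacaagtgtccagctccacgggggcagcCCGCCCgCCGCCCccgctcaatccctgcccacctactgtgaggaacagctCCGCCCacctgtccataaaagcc
Col8a2: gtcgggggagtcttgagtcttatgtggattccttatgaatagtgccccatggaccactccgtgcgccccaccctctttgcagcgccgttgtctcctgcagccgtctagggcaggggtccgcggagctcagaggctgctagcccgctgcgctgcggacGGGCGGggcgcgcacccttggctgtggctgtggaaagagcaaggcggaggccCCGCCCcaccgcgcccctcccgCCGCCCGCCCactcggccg

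The promoter table held 31 of the 40 collagen genes among 27025 genes in all, and the first window listed for a gene was searched. CCAAT was present in 10 of 31 collagen genes and 34.5% of all promoters, TATAAA in 4 of 31 collagen genes and 13% of all promoters, GGGCGG in 19 of 31 collagen genes and 32.9% of all promoters, and TGANTCA in 1 of 31 collagen genes and 6.87% of all promoters, each over 250 bases and both strands. GGGCGG was found in 7 of 10 collagen genes that rose, 3 of 4 that fell, 4 of 6 tested that did not pass and 5 of 11 dim ones. Median GC content was 63.6% in the genes that rose and 58.4% in those that fell, 62% in those that did not pass and 57.6% in the dim ones, against 52% over all promoters. The single TGANTCA match was in Col6a1. These matches describe letters in the window and were not tested as sites.

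With the probe sets chosen, Col12a1 had the largest difference of the 24 genes tested. Type XII collagen is a FACIT that bridges fibrils in tissues under tension. Its probe set (1434411_at) gave 659.8, 423 and 397 in wild-type and 2641, 3067 and 2286 in knock-in. The lowest knock-in array was well over the highest wild-type one, the mean was 5.41-fold higher, and the difference was 2.42 ± 0.19 (adjusted p = 7.26e-05). A second probe set went from 242, 126 and 96.2 to 651, 758 and 692 (2.16). The remaining 2 Col12a1 probe sets were dim, with no signal above 21.9, and the mean over all 4 was 1.28, smaller in size than that of Col8a2 (-1.46), which has 1 probe set.

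The other tested FACIT chains stayed near their wild-type level. Col14a1 (1427168_a_at), the closest relative of type XII on dermal fibrils, had 658, 611 and 512 in wild-type and 572, 516 and 528 in knock-in, a difference of -0.13 ± 0.11 (95% interval from -0.38 to 0.12). Col16a1 (1427986_a_at), found near the skin basement membrane, had 438, 553 and 525 and 513, 537 and 509, a difference of 0.046 ± 0.11 (95% interval from -0.19 to 0.29). Both groups overlapped in each gene, and neither passed (adjusted p = 0.4 and 0.77). The sign of Col14a1 turned with median centring (0.00075) and that of Col16a1 without wild-type replicate 1 (-0.051). Col9a1, Col9a2 and Col9a3, the cartilage FACIT, and Col19a1, Col20a1 and Col22a1 were dim, with signals between 0.984 and 38.3.

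Outside these classes the type VI chains rose together. Col6a1 (1448590_at) went from 1273, 1406 and 1105 in wild-type to 2216, 2458 and 2072 in knock-in, Col6a2 (1452250_a_at) from 1404, 1673 and 1418 to 2728, 3316 and 2571, and Col6a3 (1424131_at) from 1623, 1859.7 and 1289 to 3026, 3325 and 3157. These are the chains of the common type VI filament, and none of their groups overlapped. Mean signals were 1.78-, 1.92- and 1.99-fold those of wild-type, with differences of 0.83 ± 0.11, 0.93 ± 0.12 and 1.00 ± 0.13 (adjusted p = 0.00108, 8.61e-04 and 9.17e-04). Col6a4 and Col6a5, which can replace the Col6a3 chain, were dim, with no signal above 14.7.

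Col23a1 (1440911_at), a transmembrane collagen, gave 55, 79.8 and 61.4 in wild-type and 128, 101 and 140.5 in knock-in. The groups did not overlap, the difference was 0.78 ± 0.16 (adjusted p = 0.00832), and its other 2 probe sets gave 0.79 and 0.76. Of the collagens that carry heparan or chondroitin sulphate in basement membranes, Col18a1, the source of endostatin, had 361 ± 37.2 on wild-type and 399 ± 54.2 on knock-in arrays (difference 0.13 ± 0.13, 95% interval from -0.16 to 0.42). The suffix of its probe set (_s_at) marks one that can match several transcripts, and its other probe set, used when such probe sets were left out, rose (0.35, adjusted p = 0.0291, in a range from 0.0291 to 0.814). Col15a1 had 111 ± 38.7 on wild-type and 82.8 ± 25.6 on knock-in arrays and did not pass (difference -0.35 ± 0.28, 95% interval from -0.98 to 0.28, and -0.63 to -0.11 with 1 array left out). The transmembrane chains Col13a1 and Col25a1 and the secreted Col26a1 were dim, and the dim genes of this class reached 51 at most.

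Among the 17 genes past the threshold, 11 had at least 1 further probe set with a mean signal above 40, and all 13 such probe sets had the sign of the one chosen. Among the genes that did not pass, the bright second probe set of Col11a1 (mean signal 102) gave -0.41 against 0.10 for the one chosen. Sizes differed as well. The second Col5a2 probe set gave 0.52 where the chosen one gave 1.11, and the second Col4a5 probe set gave -1.0 against -1.25.

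**Figure D3:**
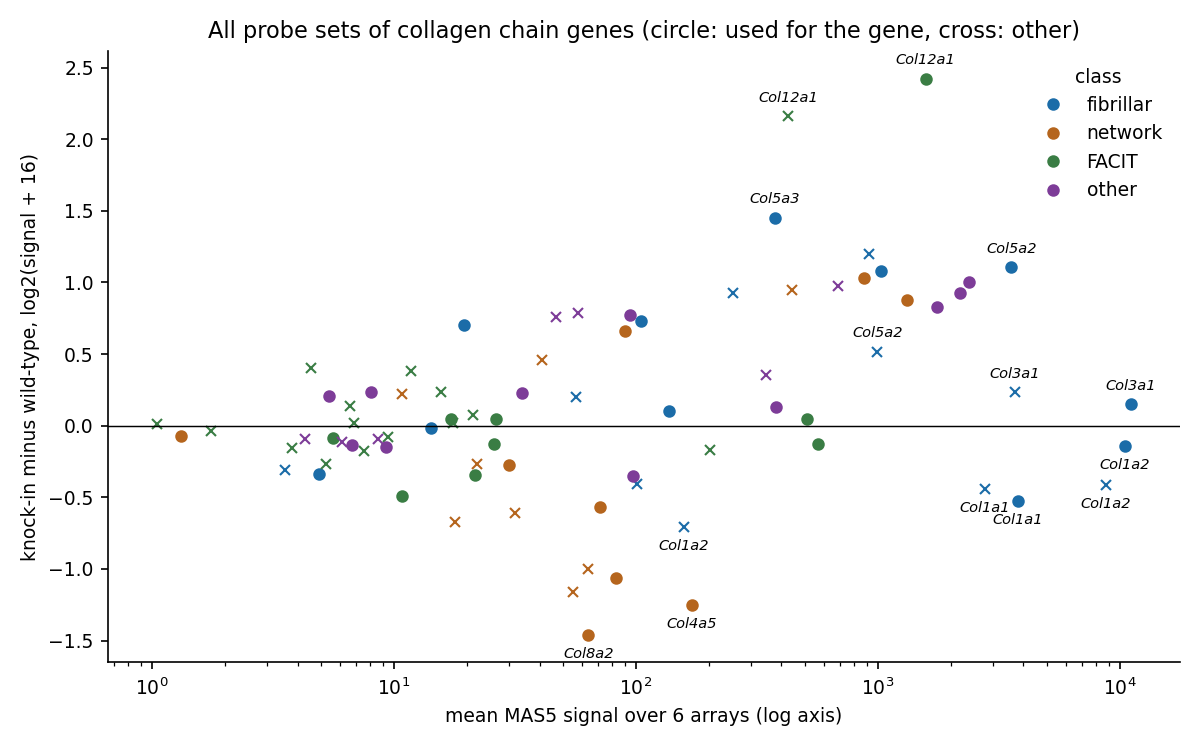
All 80 probe sets of the collagen chain genes by mean signal over the 6 arrays (log axis) and log2 difference (knock-in minus wild-type). Circles stand for the probe set used for a gene and crosses for its others; the bright probe sets of Col1a1 and Col1a2 lie below 0, those of Col5a2 and Col12a1 above.

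Ratios of chains within an array show whether partners changed to the same extent. For 9 pairs that share a molecule or a fibril, the log2 ratio was compared with a two-sided exact permutation test, which cannot go below 0.1 for 3 arrays against 3, so that no pair could pass. Col3a1 to Col1a1 shifted by 0.67 ± 0.09, with ratios of 1.24 ± 0.13 on wild-type and 1.91 ± 0.092 on knock-in arrays and no overlap (exact p = 0.1, adjusted p = 0.18 over the 9 pairs), and Col4a6 to Col4a5 by 0.69 ± 0.058. Col1a2 to Col1a1 shifted by 0.38 ± 0.11, but by 0.062 with the mean over probe sets, and Col6a3 to Col6a1 by 0.17 ± 0.077. Col8a2 to Col8a1 shifted by -2.12 ± 0.30, or by -1.31 with an offset of 64, but Col8a2 was tested through its wild-type arrays alone. These 5 of the 9 pairs had groups that did not overlap and the same exact p. For single genes, the groups did not overlap in 47.1% of all genes tested. The share among ratios of other gene pairs was not computed, so the count says little about partners as such. The groups overlapped for Col5a2 to Col5a1 (0.027 ± 0.063), Col5a3 to Col5a1 (0.37 ± 0.34), Col4a2 to Col4a1 (0.15 ± 0.12) and Col6a2 to Col6a1 (0.10 ± 0.075), with exact p between 0.2 and 0.7. Leaving out 1 array moved the last 3 of these over 0.14 to 0.62, 0.063 to 0.24 and 0.044 to 0.15. With the mean over probe sets the shifts of Col5a2 to Col5a1 and Col5a3 to Col5a1 turned to -0.26 and -0.50.

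**Figure D4:**
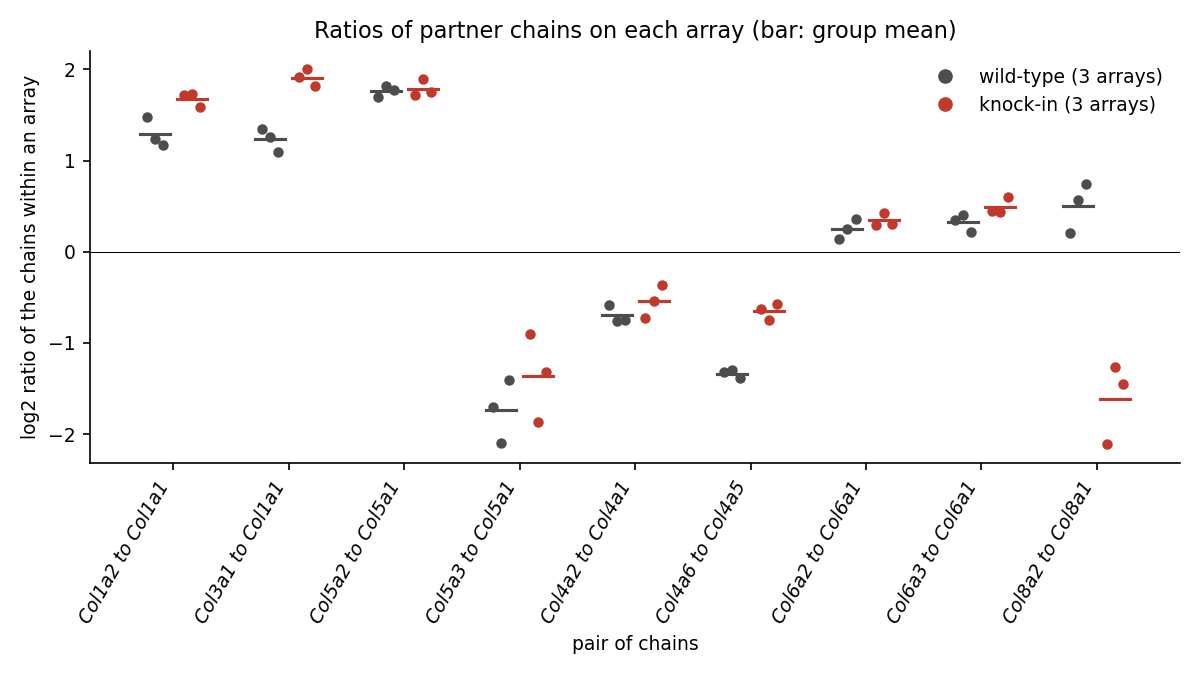
Log2 ratio of the signals of 2 collagen chains within each array, for 9 pairs, with bars at the group means (n = 3 per group). The shift between the groups can be read, not the height, since the chains are read by different probes. The groups lie apart for Col3a1 to Col1a1 and overlap for Col5a2 to Col5a1.

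Genes that modify, cleave and cross-link collagen were read from 77 listed genes, of which 72 had a probe set and 58 passed the filter, with 25 higher, 9 lower and 24 not past the threshold. Across all genes tested, 14.8% were higher and 16.3% lower, so the share of lower genes in these lists lay near the background. The counts of each list below are to be read against these shares. Of the 58, 5 passed the filter through the knock-in arrays alone and 1, Ecm2, through the wild-type arrays alone. Of 13 enzymes and cofactors of prolyl and lysyl modification, 8 rose, 0 fell and 5 did not pass (median log2 difference 0.61). P4hb, the shared subunit of prolyl 4-hydroxylase, had signals of 2819 ± 125 on wild-type and 4381 ± 180.3 on knock-in arrays and rose by 0.63 ± 0.084. The catalytic subunit P4ha2 rose by 0.92 ± 0.18 and P3h1, a prolyl 3-hydroxylase, by 1.08 ± 0.18 (adjusted p = 9.70e-04, 0.00627 and 0.00282). Colgalt1, which adds galactose to hydroxylysine, rose by 0.77 ± 0.12. Among 6 chaperone and secretion genes, 1 rose, 0 fell and 5 did not pass. Sec24d, a coat protein of the vesicles that carry procollagen, rose by 0.59 ± 0.12. Serpinh1, the collagen chaperone HSP47, had 2376 ± 299.9 on wild-type and 3023 ± 284 on knock-in arrays, a difference of 0.35 ± 0.12 (adjusted p = 0.051), and passed on leaving out wild-type replicate 2 (0.0243) or knock-in replicate 2 (0.0468) and with median centring (0.0166), in a range from 0.0166 to 0.174.

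Of 4 propeptide cleavage genes, 2 rose, 1 fell and 1 did not pass. Bmp1, which removes the C-propeptide, rose by 0.78 ± 0.12 and its relative Tll1 by 1.18 ± 0.19 (0.66 with an offset of 64, and tested through its knock-in arrays alone), whereas Pcolce2, an enhancer of that cleavage, had 1082 ± 367 on wild-type and 325 ± 45.8 on knock-in arrays and fell by 1.63 ± 0.23. Of 4 cross-linking genes of the lysyl oxidase family, 3 rose, 0 fell and 1 did not pass. Lox had signals of 801 ± 179 on wild-type and 2209 ± 561 on knock-in arrays and rose by 1.43 ± 0.22, Loxl1 by 1.17 ± 0.17 and Loxl3 by 1.92 ± 0.23 (adjusted p = 0.00178, 0.00139 and 5.40e-04). The 16 fibril regulators had a median of -0.061, and 4 rose, 4 fell and 8 did not pass. Thbs2 and the proteoglycan Bgn rose by 1.48 ± 0.17 and 0.88 ± 0.14, while Ogn, a small leucine-rich proteoglycan, had 1530.1 ± 270.0 on wild-type and 527 ± 10.3 on knock-in arrays (difference -1.49 ± 0.13, adjusted p = 1.18e-04). Ecm2, an extracellular matrix protein, had 89.4 ± 30 on wild-type and 24.3 ± 5.86 on knock-in arrays (difference -1.36 ± 0.22, -0.78 with an offset of 64 and -0.74 averaged over its probe sets).

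Of 4 receptor genes, 2 rose, 1 fell and 1 did not pass. Itgb1, the beta chain of collagen-binding integrins, rose by 0.90 ± 0.092 (0.38 averaged over its probe sets). Its alpha partner Itga1 rose by 0.45 ± 0.14 (adjusted p = 0.0388), a call lost when any array but wild-type replicate 3 was left out, with no filter, with the mean over probe sets and with the replicate number as a block, in a range from 0.0137 to 0.123. Ddr1, an epithelial receptor kinase, had a difference of -0.64 ± 0.11, and -0.45 without shared probe sets (adjusted p = 0.0521, in a range from 0.00161 to 0.0521). Of 11 breakdown and uptake genes, 5 rose, 3 fell and 3 did not pass. The collagenases Mmp13 and Mmp8 and the inhibitor Timp1 had differences of 4.79 ± 0.37, 4.55 ± 0.24 and 4.49 ± 0.34 (adjusted p = 6.72e-05, 8.63e-06 and 6.25e-05). Mmp8 averaged 15.5 ± 3.71 on wild-type and 749 ± 241 on knock-in arrays, Mmp13 24.3 ± 13.5 on wild-type and 1160.0 ± 566 on knock-in arrays and Timp1 96.9 ± 30.2 on wild-type and 2675 ± 1172 on knock-in arrays. Mmp8 and Mmp13 exceeded the array median on knock-in arrays alone, so they had to differ to be tested as they were. Mmp9, a gelatinase, rose by 2.07 ± 0.27. The 3 that fell were the inhibitors Timp2 (-0.86 ± 0.18) and Timp3 (-1.04 ± 0.14) and Ctsk (-0.85 ± 0.18). Timp2 averaged 3440 ± 939 on wild-type and 1843 ± 92.9 on knock-in arrays. Timp3 averaged 1475 ± 213 on wild-type and 711 ± 110 on knock-in arrays. Mmp8 is itself a neutrophil marker. The other 4 markers on that list, S100a8 (4.26 ± 0.15), S100a9 (5.72 ± 0.19), Csf3r (2.07 ± 0.20, or 1.37 with an offset of 64) and Cxcr2 (2.23 ± 0.26), rose too, Csf3r and Cxcr2 having passed the filter through the knock-in arrays alone. With Mmp8 the list summed to signals from 533 to 761 in wild-type and from 14405 to 18548 in knock-in. Of 7 macrophage markers, 4 rose, 0 fell and 3 did not pass, with sums from 7171 to 10738 in wild-type and from 12545 to 18904 in knock-in. Neither pair of sums overlapped, and the part of these cells was not tested.

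**Figure D5:**
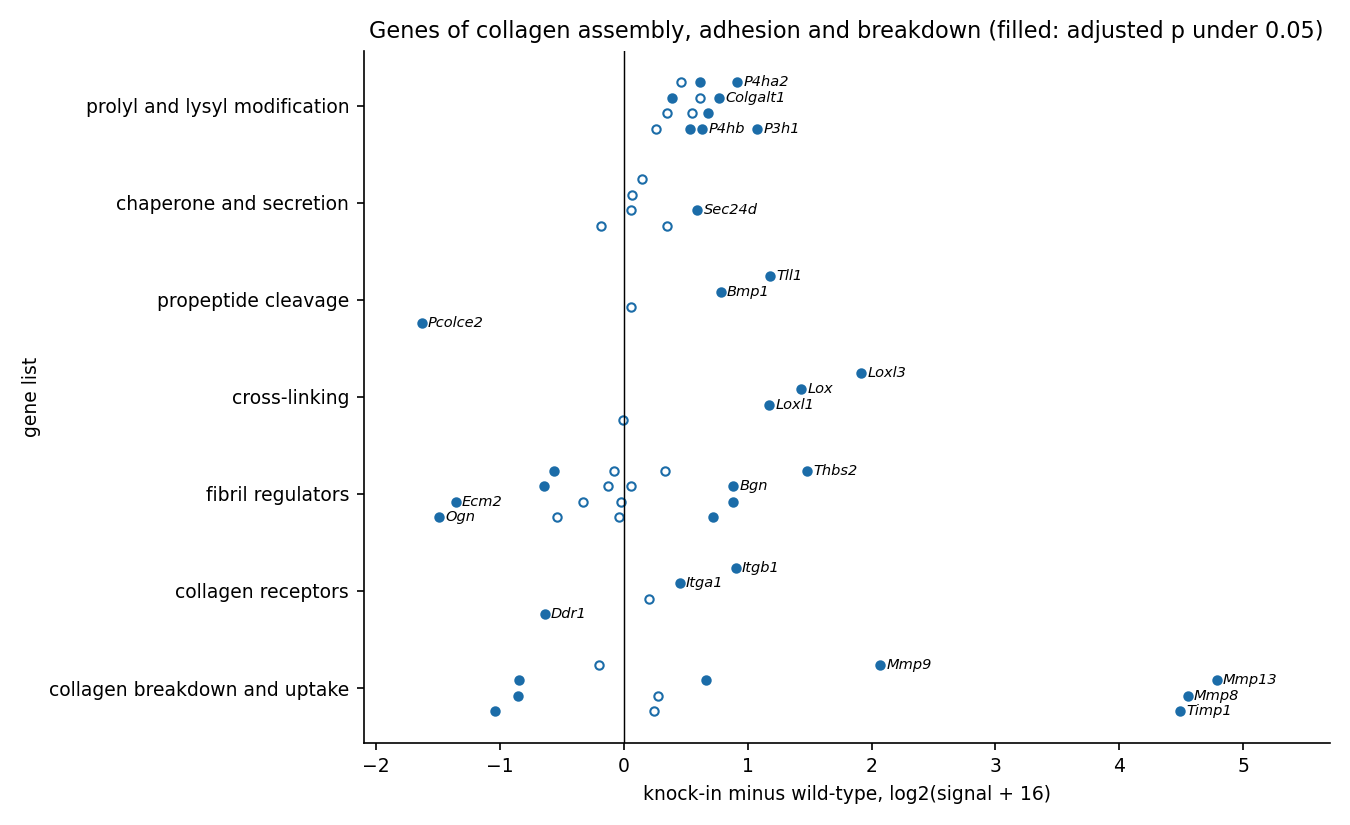
Log2 difference (knock-in minus wild-type) of the 58 genes tested in 7 lists of collagen assembly, adhesion and breakdown, 1 point per gene. Filled points passed an adjusted p of 0.05, and all 13 prolyl and lysyl modification genes lie above 0.

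Of 10 cartilage markers, Matn1, Matn3, Hapln1, Cnmd and Chad had mean signals under 16, and Acan, Snorc and Ucma were dim as well. The 2 that passed the filter, Sox9 and Comp, went opposite ways. Comp passed it through the knock-in arrays alone, so it had to differ to be tested as it was. Sox9, a transcription factor that hair follicles also express, had 388 ± 13 on wild-type and 219 ± 21.7 on knock-in arrays (difference -0.78 ± 0.10, or -0.48 averaged over its probe sets), and Comp, a matrix protein also on the list of fibril regulators, had 28.9 ± 10.5 on wild-type and 65.7 ± 14.8 on knock-in arrays (0.88 ± 0.22, or 0.48 with an offset of 64). The Comp call was lost when knock-in replicate 3 was left out (adjusted p = 0.0705, in a range from 0.00629 to 0.0705). Most of the summed signal of the list, from 503 to 556 in wild-type and from 362 to 439 in knock-in, was that of Sox9. Of 5 bone markers none passed the filter, with a summed signal from 59.9 to 78.4 in wild-type and from 92.7 to 104 in knock-in. Of 5 pericyte and smooth muscle markers tested, 1 rose, 2 fell and 2 did not pass. Rgs5 rose by 1.10 ± 0.14, Des, which muscle fibres share, had 0.57 ± 0.30 without passing, and Cspg4 and Notch3 fell by 0.50 and 0.34. Median centring, the replicate number as a block and leaving out wild-type replicate 3 or knock-in replicate 1 each ended both of the latter calls (adjusted p over the alternatives from 0.0096 to 0.0832 and from 0.0297 to 0.837), leaving out knock-in replicate 2 and averaging over probe sets ended that of Notch3, and without shared probe sets Notch3 gave 0.27. The summed signal of the list ran from 1677 to 2288 in wild-type and from 2765 to 3348 in knock-in. Keratinocyte (given above), adipocyte (from 8258 to 11989 in wild-type and from 11258 to 13179.8 in knock-in) and dermal papilla sums (from 606 to 854 in wild-type and from 476 to 769 in knock-in) overlapped between the groups. Single genes of these lists did differ. Of 6 keratinocyte markers tested, 2 rose, 1 fell and 3 did not pass. For 5 adipocyte markers these counts were 1, 0 and 4, and for 5 dermal papilla markers 1, 2 and 2. Of the Schwann cell markers 2 were tested, Mbp fell by 1.07 ± 0.21 (-0.62 averaged over its probe sets), Cdh19 had -0.022 ± 0.19 and did not pass, and Sox10 was dim with 25.9 ± 3.68 on wild-type and 28.4 ± 14.6 on knock-in arrays. Their sums (from 445 to 831 in wild-type and from 315 to 361 in knock-in) followed Mbp. The part of any of these cell types in the collagen differences was not tested.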

How the data were processed

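Skin RNA of 3 wild-type and 3 knock-in samples was read on single-channel Affymetrix arrays. The authors deposited signal intensity values on a linear scale, which are MAS5 output per the submitters' processing notes. Its version is not given in the sources used here, nor are its settings or a genome build. The 2% trimmed mean was 150 on every array, so no further scaling was applied. The table has no detection calls, and the number of arrays limits the precision. Of 45101 probe sets, 64 controls were left out, 34945 had 1 gene symbol in the platform annotation, 932 several and 9160 none; those with several or none named no gene. A gene was kept if 3 or more arrays had its signal over their own median. The fit used log2(signal + 16) and limma 3.58.1 in R 4.3.3 (lmFit, eBayes with trend, two-sided), adjusted by Benjamini-Hochberg over all genes tested, and the procedure was tested on simulated data. There it recovered 34% of log2 differences of 0.5, 80% of those of 1 and 100% of those of 2, and 6 of 163 calls were false. Far fewer genes were changed in the simulation than were called here, so these rates need not hold for these data. The collagen genes, classes, lists and pairs were chosen with earlier results of these data known, so no list was tested as a set. The lists are described by counts, medians, summed signals and the values of named genes. Values of each array are given for members past the threshold and the brightest of each class, and from each pathway list, and the fibroblast and endothelial ones, those past the threshold among the 4 genes with the smallest unadjusted p, with Serpinh1. In the fibroblast lists the genes that fell or did not pass are named too, and in the breakdown list those that fell. Keratinocyte, adipocyte, dermal papilla, macrophage and muscle lists are given by sums or counts. Other marker genes are named where they carry a list's sum or passed the filter through 1 group alone. The alternatives were other offsets, filters, scalings and probe set rules, the replicate number as a block, and each array left out in turn.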

Additional observations from a re-analysis of the deposited data

How the results depend on the processing

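All 17 collagen genes past the threshold kept their sign under the 15 alternatives run, 14 for Col8a2, and 13 also stayed past it; Col1a1, Col27a1, Col4a6 and Col8a1 did not. With an array left out, all genes called ranged from 2394 to 3367, higher collagen genes from 10 to 12 and lower ones from 3 to 5. Same-numbered samples had deviations that correlated at -0.25, -0.41 and -0.02. With so few arrays these values cannot show whether such samples were paired, and the labels do not say. With the replicate number as a block, there were 2450 genes called, with 12 higher and 4 lower collagen genes, and Col1a1 lost its call. Median centring moved the median of all genes by 0.13 and the share of higher calls from 47.6% to 68.1%, with 12 higher and 4 lower collagen genes. Collagen directions that turned, none of them past the threshold, were those of Col14a1 with median centring (0.00075), Col11a1 with the mean over probe sets (-0.15) and with an array left out (from -0.21 to 0.35), Col16a1 with an array left out (from -0.051 to 0.11), and the ratios of Col5a2 to Col5a1 (-0.26) and Col5a3 to Col5a1 (-0.50) with the mean over probe sets. The Col5a2 to Col5a1 shift ran from -0.025 to 0.062 with an array left out. Notch3 turned without shared probe sets (0.27). Over all alternatives, the differences of the genes that did not pass ran from -0.42 to -0.0089 (Col1a2), -0.23 to 0.00075 (Col14a1) and 0.048 to 0.35 (Col18a1). The cause was not tested. Dim signals limit what can be said of the 16 genes under the filter.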
